A study of Mus musculus with 6 samples.

Results

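The genes described are 6 cadherins (Cdh1, Cdh2, Cdh3, Cdh6, Cdh11 and Cdh13) and 3 catenins (Ctnna1, Ctnnb1 and Ctnnd1), taken by gene symbol as 9 of the 24214 features counted in each sample. They were measured in 393P, an epithelial murine lung adenocarcinoma (LUAD) cell line of strain C57BL/6, labelled as KP lung cancer cells. Cells carried either ectopic ZEB1, a transcriptional repressor that drives epithelial-to-mesenchymal transition (393P_ZEB1), or the empty vector (393P_vector), and both were grown in the same serum-supplemented RPMI-1640 medium. SOLiD total RNA sequencing was done on 3 samples per condition. The promoter driving ZEB1 and whether the transfectants were clones or pools are not given in the sources used here, nor is whether replicates were separate cultures, so p-values measure the spread between these samples, which may be technical.

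Cadherins are calcium-dependent adhesion receptors that hold neighboring cells together at adherens junctions. The cytoplasmic tail of a classical cadherin binds delta-catenin 1 (Ctnnd1), which keeps the cadherin at the cell surface, and beta-catenin (Ctnnb1), which in turn binds alpha-catenin (Ctnna1), the link to actin. Beta-catenin outside the junction is either degraded or enters the nucleus as a co-activator of Wnt target genes. Cdh1, Cdh2 and Cdh3 are type I classical cadherins, Cdh6 and Cdh11 are type II, and Cdh13 is a lipid-anchored cadherin without a catenin-binding tail. Cdh13 is therefore not a classical cadherin in structure, although it is grouped with them here. A switch from Cdh1 to Cdh2 is a textbook mark of epithelial-to-mesenchymal transition.

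Levels are given in CPM, counts scaled to a common library size after TMM normalization, and differences are log2 fold changes of 393P_ZEB1 over 393P_vector. Genes were tested with edgeR (quasi-likelihood), 13892 of them having passed a filter on low counts, and p-values were adjusted over all of these. An adjusted p under 0.05 was taken as a change. Libraries held between 54442450 and 79158012 counts, so that a detection floor of 3 counts lay between 0.0361 and 0.0561 CPM. Where 3 values are given for a group, they are those of replicates 1, 2 and 3 in that order. Zeb1 itself stood at 21.2, 22.01 and 21.4 CPM in 393P_vector and at 54.9, 48.9 and 51.3 CPM in 393P_ZEB1, a log2 fold change of 1.26 (SE 0.10, edgeR adjusted p = 6.06e-05). The species of the ectopic ZEB1 sequence is not given in the sources used here. The share of its transcript that was counted on the mouse Zeb1 feature is therefore not known. 393P_vector replicate 3 stood apart. Between 8.98% and 9.93% of genes differed at least 2-fold between it and the other 393P_vector samples, against 2.77% between those other samples and 3.38% to 3.83% between 393P_ZEB1 samples.

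All 9 genes passed the filter, and 6 changed, 3 upward and 3 downward, while 37.6% of all tested genes changed. The share of all tested genes that rose was 18.3% and the share that fell was 19.3%. Cdh6, Cdh2 and Ctnna1 rose, and Cdh1, Cdh3 and Ctnnd1 fell. The cadherin changes were larger. The 4 genes that changed at least 2-fold were all cadherins, against 17.1% of tested genes with a change of that size, and the changed catenins moved by less than that. The CPM of the groups did not overlap for 7 of the 9 genes, which was the case for 52.8% of all tested genes. For those 7 genes an exact permutation test (two-sided, n = 3 per group) gave p = 0.1, the smallest that 3 samples against 3 allow. The plot of CPM by sample shows the values. In bulk RNA, fewer cells expressing a gene and less RNA per cell cannot be told apart.

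**Figure D1:**
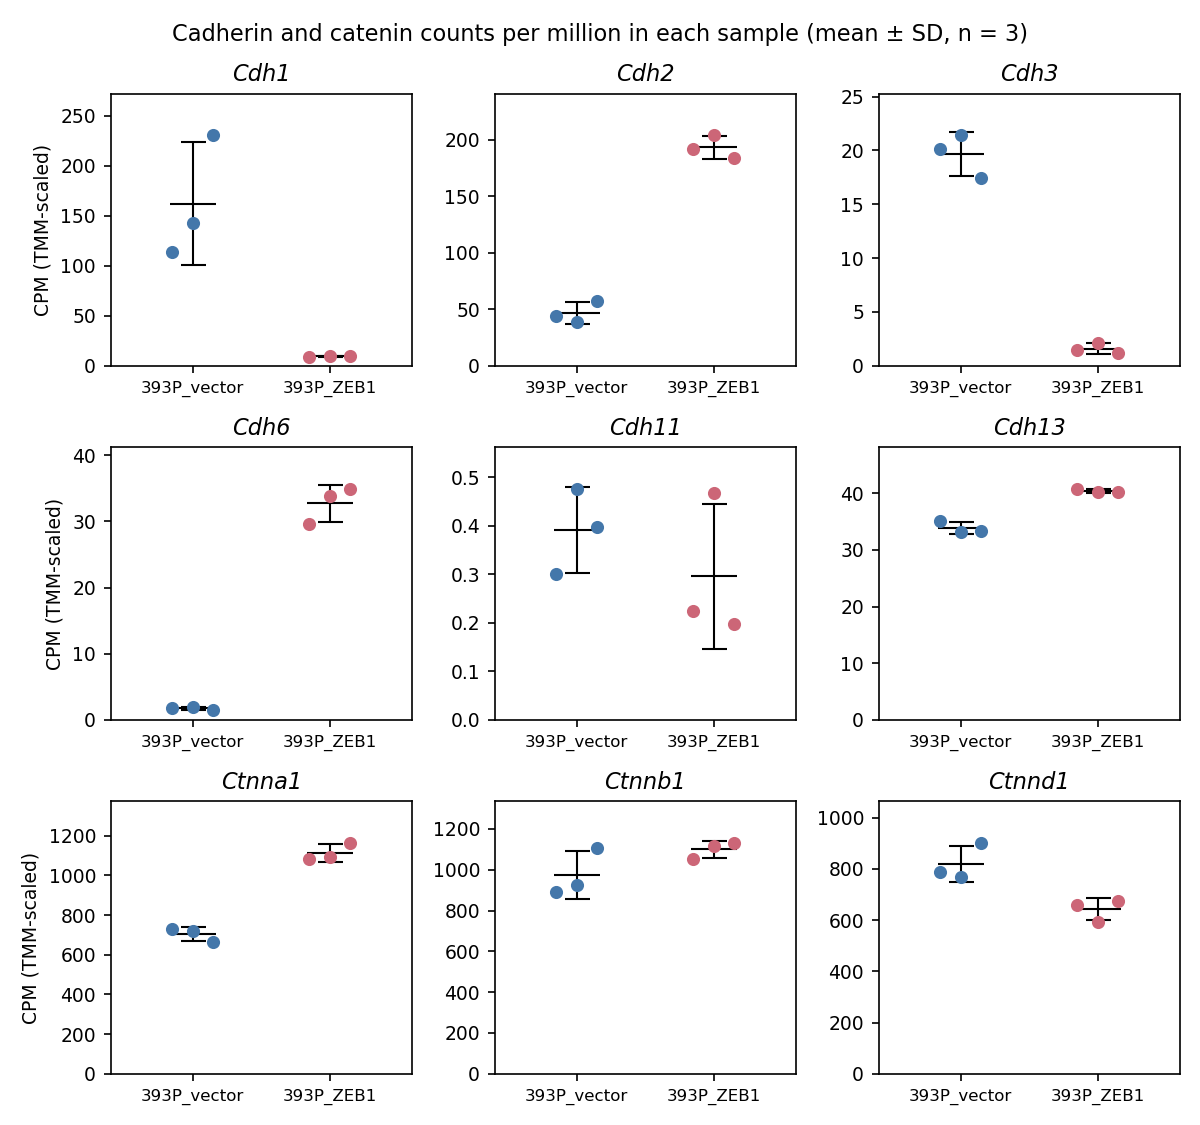
CPM of each cadherin and catenin (y axis, TMM-scaled, a separate linear axis from 0 for each gene) in the 3 samples of 393P_vector (blue) and of 393P_ZEB1 (red), with replicates 1 to 3 from left to right, and the mean ± SD of each group in black. Cdh1 and Cdh3 are near the bottom of their axes in 393P_ZEB1 and Cdh6 in 393P_vector, while the groups overlap for Cdh11 and Ctnnb1.

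Cdh1 (E-cadherin, the main adhesion receptor of epithelial cells) fell 17.1-fold. The gene lies on the plus strand of chromosome 8 at 106603368 to 106670246 (GRCm38), with 16 exons. Its CPM was 113.4, 142.8 and 230.9 in 393P_vector and 8.84, 9.43 and 10.3 in 393P_ZEB1. The lowest 393P_vector sample was far above the highest 393P_ZEB1 sample, and 393P_vector replicate 3, the sample that stood apart, had the highest level. The means were 162.3 ± 61.2 and 9.51 ± 0.718 CPM (SD, n = 3 each), and the log2 fold change was -4.09 (SE 0.28, 95% confidence interval -4.74 to -3.45, edgeR adjusted p = 2.28e-05). The transcript remained detectable across most of its length in 393P_ZEB1, where 13 to 15 of its 16 exons held more than 10 reads, against all 16 in every 393P_vector sample.

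Cdh3 (P-cadherin, found in basal and some glandular epithelia) is the nearest tested gene before Cdh1, ending 46459 bp from it on the same strand with 1 untested feature between them (chromosome 8, 106510891 to 106556908, 19 exons). It stood at 20.2, 21.4 and 17.5 CPM in 393P_vector and at 1.44, 2.14 and 1.21 CPM in 393P_ZEB1. The groups were well separated, with little spread in 393P_vector. The level fell from 19.7 ± 2.03 to 1.598 ± 0.485 CPM, or 12.3-fold, with a log2 fold change of -3.62 (SE 0.24, 95% confidence interval -4.17 to -3.07, edgeR adjusted p = 1.87e-05). More than 10 reads were found on all 19 exons in each 393P_vector sample and on 2 to 4 in 393P_ZEB1. The nearest tested genes outside the pair did not pass the test. Zfp90, before Cdh3, had a log2 fold change of 0.02 (SE 0.17, edgeR adjusted p = 0.946), and Tmco7, after Cdh1, had -0.04 (SE 0.21, edgeR adjusted p = 0.907).

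Cdh6 (K-cadherin, a type II cadherin of kidney and neural crest derivatives) had the largest rise of the 9 genes. In 393P_vector its CPM was 1.73, 1.92 and 1.49, and in 393P_ZEB1 it was 29.6, 33.8 and 34.9. Every 393P_ZEB1 sample was far above every 393P_vector sample. The mean rose from 1.72 ± 0.214 to 32.8 ± 2.81 CPM, or 19.1-fold, with a log2 fold change of 4.26 (SE 0.16, 95% confidence interval 3.89 to 4.63, edgeR adjusted p = 1.63e-06). Reads in 393P_ZEB1 covered the whole gene, with all 12 exons over 10 reads in each sample, against 3 to 5 in 393P_vector. The gene lies on the minus strand of chromosome 15 at 13034200 to 13173639. On one side Drosha, the nearest tested gene, had a log2 fold change of 0.01 (SE 0.12, edgeR adjusted p = 0.948). On the other side the nearest was Cdh10, another type II cadherin, which rose from 0.383 to 1.93 mean CPM.

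Because Cdh6 rose most, the reference promoter is shown, running from 250 bases before to 50 after the RefSeq start site (chr15:13173626-13173925, minus strand, GRCm38.p6). ZEB1 is known to bind E-box sequences, so CAGGTG and CACCTG, which are each other's reverse complement, were searched, and likewise the shorter CACCT and AGGTG that they contain. None of these was in the window, and no letter is in capitals. Of 32851 promoter windows of that length, 20.2% held CAGGTG or CACCTG and 51.9% held CACCT or AGGTG. The reference table held windows for 3 of the 9 genes, Cdh6, Ctnnb1 and Ctnnd1, and not for Cdh1, Cdh2, Cdh3, Cdh11, Cdh13 or Ctnna1.
Cdh6 promoter: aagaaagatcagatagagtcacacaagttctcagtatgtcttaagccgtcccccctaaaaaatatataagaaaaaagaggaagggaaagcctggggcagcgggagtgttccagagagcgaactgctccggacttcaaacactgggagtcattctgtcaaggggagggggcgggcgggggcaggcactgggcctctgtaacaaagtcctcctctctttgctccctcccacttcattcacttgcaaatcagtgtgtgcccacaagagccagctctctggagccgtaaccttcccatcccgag

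Cdh13 and Cdh11 did not pass the test. Cdh13 (T-cadherin, known as an adiponectin receptor on vessels and muscle) lies on the plus strand of chromosome 8 at 118283755 to 119323448. Its CPM was 35.1, 33.2 and 33.4 in 393P_vector and 40.8, 40.2 and 40.3 in 393P_ZEB1. The groups did not overlap, but the difference was small, with a log2 fold change of 0.25 (SE 0.098, 95% confidence interval 0.025 to 0.48, edgeR adjusted p = 0.0792). DESeq2's Wald test placed it past the threshold (log2 fold change 0.26, DESeq2 adjusted p = 0.0328), as did the edgeR test without 393P_vector replicate 3 (0.24, edgeR adjusted p = 0.0334). Cdh11 (OB-cadherin, typical of mesenchyme and osteoblasts) was barely expressed, at chromosome 8, 102632995 to 102785111, minus strand. It had 17, 28 and 33 counts in 393P_vector and 12, 26 and 12 in 393P_ZEB1, all under 0.5 CPM. The groups overlapped, with a log2 fold change of -0.41 (SE 0.40, 95% confidence interval -1.33 to 0.51, edgeR adjusted p = 0.455).

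Cdh2 (N-cadherin, the main cadherin of mesenchymal and neural cells) was already present in 393P_vector and rose 4.12-fold. Its CPM was 44.5, 38.4 and 57.6 in 393P_vector and 191.5, 204.2 and 184.0 in 393P_ZEB1. The groups were far apart, and within 393P_vector the highest level was again in replicate 3, which thus had the most Cdh1 and the most Cdh2 of its group. The means were 46.8 ± 9.82 and 193.2 ± 10.2 CPM, and the log2 fold change was 2.04 (SE 0.16, 95% confidence interval 1.67 to 2.42, edgeR adjusted p = 4.88e-05). Cdh2 lies on the minus strand of chromosome 18 at 16588877 to 16809049, with 16 exons.

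**Figure D2:**
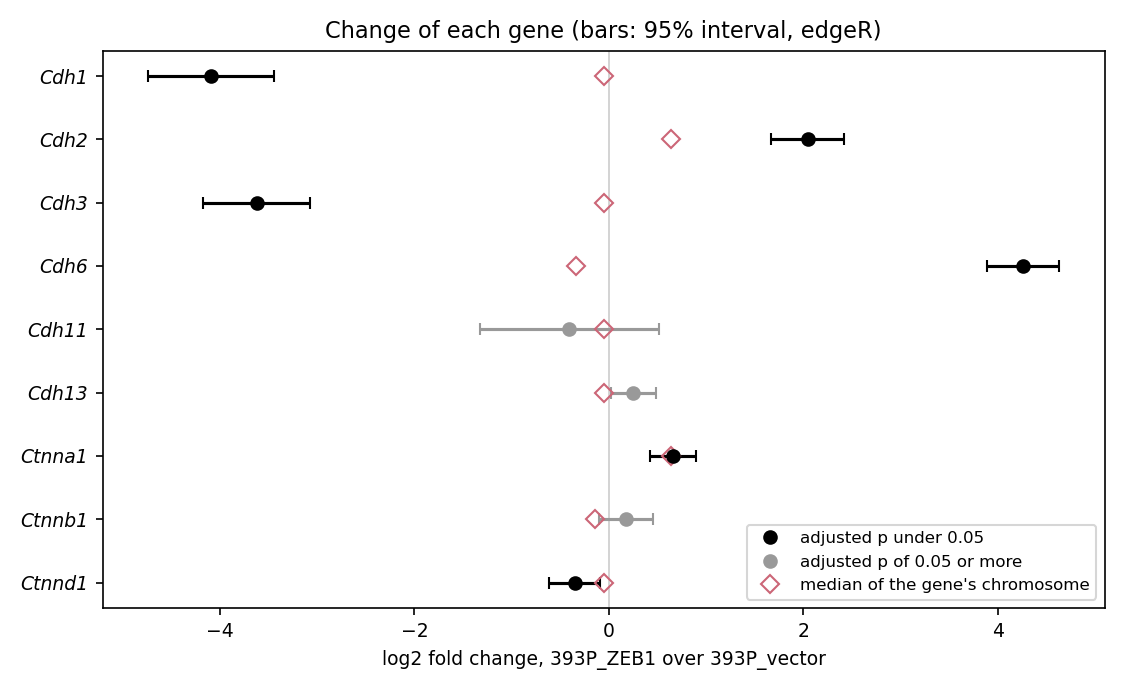
Log2 fold change of 393P_ZEB1 over 393P_vector (x axis) for each cadherin and catenin (points, with bars for the 95% confidence interval), black where it passed the test and grey where it did not, beside the median of all tested genes on the same chromosome (red diamonds). Cdh1, Cdh2, Cdh3 and Cdh6 lie far from their chromosome's median, while Ctnna1, at 0.66, lies beside the chromosome 18 median of 0.64.

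Per kilobase of exon, which allows levels of different genes to be compared, the 6 cadherins differed in their make-up between the conditions. The 6 cadherins summed to 56.6, 61.6 and 84.7 CPM per kilobase in 393P_vector and to 73.0, 77.5 and 73.4 in 393P_ZEB1. The groups overlapped through 393P_vector replicate 3 alone, the sample that stood apart, and the other 393P_vector sums lay below every 393P_ZEB1 sum. The means were 67.6 ± 14.96 in 393P_vector and 74.6 ± 2.46 in 393P_ZEB1. Cdh17, described further on, is not in these sums, and had a mean of 9.58 CPM per kilobase in 393P_vector and 128.4 in 393P_ZEB1. These are descriptions with no test, since the genes were chosen with earlier results of these data known.

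Cdh1 made up 45.5%, 52.7% and 62.0% of the cadherin sum in 393P_vector and 2.76%, 2.77% and 3.18% in 393P_ZEB1. Cdh2 made up 15.04% ± 1.78 in 393P_vector and 55.9% ± 1.57 in 393P_ZEB1 (SD, n = 3 each). The log2 ratio of Cdh1 to Cdh2 per kilobase was 1.42, 1.97 and 2.08 in 393P_vector and -4.36, -4.36 and -4.09 in 393P_ZEB1. Cdh1 therefore exceeded Cdh2 in every 393P_vector sample and was below it in every 393P_ZEB1 sample. Cdh6 made up between 0.673% and 1.19% of the sum in 393P_vector and 16.8% ± 1.34 in 393P_ZEB1. Cdh13 held between 17.3% and 27.3% of the sum across all 6 samples, with the groups overlapping.

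**Figure D3:**
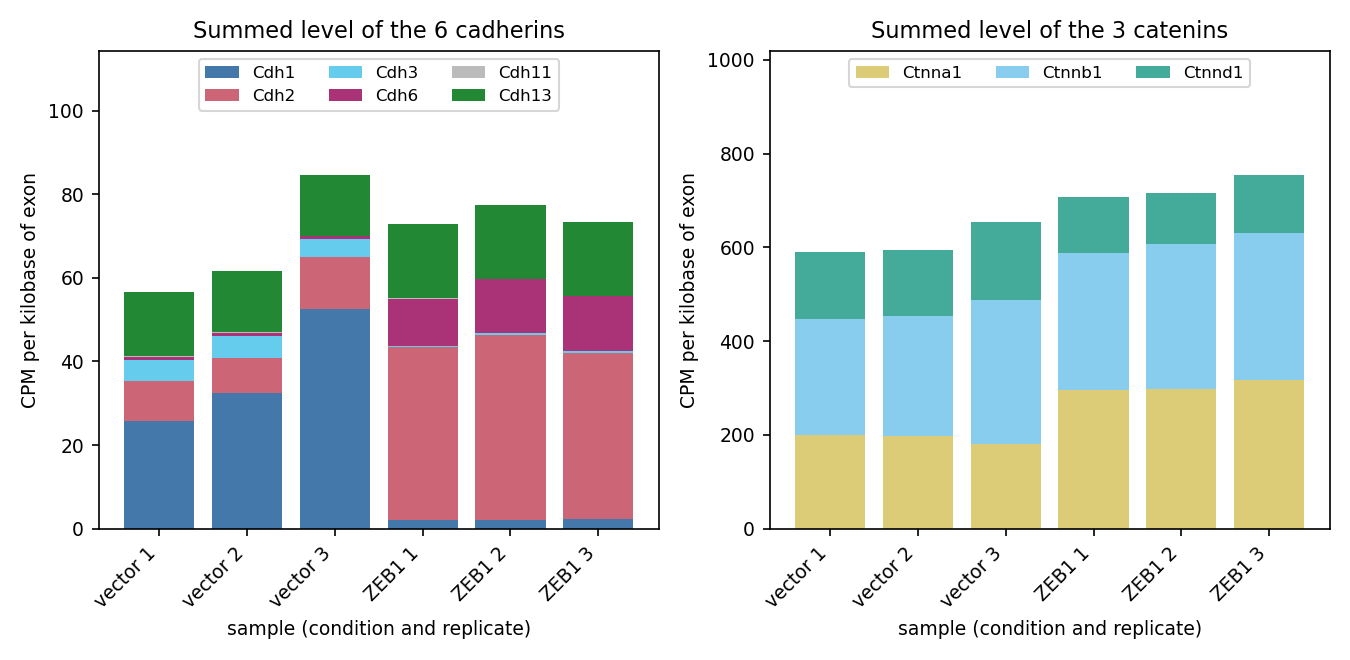
CPM per kilobase of exon (y axis) of the 6 cadherins, stacked, in each of the 6 samples (x axis), with the 3 catenins stacked in the right panel. Cdh1 is the largest layer in the 3 393P_vector samples and Cdh2 in the 3 393P_ZEB1 samples, while the cadherin total lies between 56.6 and 84.7 and the catenin total between 590.4 and 755.0.

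In 393P_vector the order of mean levels per kilobase was Ctnnb1 (270.1 CPM per kilobase), Ctnna1 (192.6), Ctnnd1 (150.1), Cdh1 (36.9), Cdh13 (14.9), Cdh2 (10.1), Cdh3 (4.95), Cdh6 (0.655) and Cdh11 (0.0931). The ranges of no neighbors in that order overlapped. In 393P_ZEB1 the order of mean levels per kilobase was Ctnnb1 (304.7 CPM per kilobase), Ctnna1 (304.1), Ctnnd1 (117.7), Cdh2 (41.7), Cdh13 (17.8), Cdh6 (12.5), Cdh1 (2.16), Cdh3 (0.402) and Cdh11 (0.0705). There the ranges of Ctnnb1 and Ctnna1 overlapped, and those of no other neighbors did. The 3 catenins stood above each of the 6 cadherins in both conditions. Their sum was higher in every 393P_ZEB1 sample (707.9 to 755.0 CPM per kilobase) than in any 393P_vector sample (590.4 to 653.2). The catenins did not rise together. The mean of Ctnna1 rose from 192.6 to 304.1 and that of Ctnnb1 from 270.1 to 304.7, while that of Ctnnd1 fell from 150.1 to 117.7.

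Among the catenins, Ctnna1 (alpha-catenin, the actin-binding link) rose by a modest amount. Its CPM was 728.8, 721.8 and 662.7 in 393P_vector and 1082, 1093 and 1163 in 393P_ZEB1. The groups did not overlap and both had little spread. The means were 704.4 ± 36.3 and 1112 ± 43.9 CPM, a 1.58-fold rise, with a log2 fold change of 0.66 (SE 0.10, 95% confidence interval 0.42 to 0.89, edgeR adjusted p = 0.0017). When tested against a fold change of 1.5 rather than none, the edgeR adjusted p was 0.37.

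The rise of Ctnna1 was close to that of its whole chromosome. Ctnna1 lies on the plus strand of chromosome 18 at 35118912 to 35254775, and the 396 tested genes there had a median log2 fold change of 0.64 (quartiles 0.33 and 1.01), the highest median of any chromosome, against -0.02 for all tested genes. Ctnna1 was above that median by 0.02, which is 0.229 of its SE, with 209 tested genes of the chromosome below it and 186 above. The nearest tested genes, Hspa9 and Sil1, had log2 fold changes of 0.71 (SE 0.10, edgeR adjusted p = 0.00128) and 1.16 (SE 0.17, edgeR adjusted p = 0.00137). Cdh2 is on the same chromosome and was above its median by 1.41, with 366 tested genes below it and 29 above. The nearest tested genes to Cdh2, Kctd1 and 4921533I20Rik, did not pass the test, with log2 fold changes of -0.10 (SE 0.17, edgeR adjusted p = 0.684) and 0.71 (SE 0.24, edgeR adjusted p = 0.0504). The part of the chromosome-wide shift in the values of Cdh2 and Ctnna1 was not tested.

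Ctnnb1 (beta-catenin, junction protein and Wnt co-activator) did not pass the test. It stood at 891.2, 924.7 and 1108 CPM in 393P_vector and at 1052, 1115 and 1131 CPM in 393P_ZEB1. The groups overlapped through 393P_vector replicate 3 alone, which was above 393P_ZEB1 replicate 1. The log2 fold change was 0.17 (SE 0.12, 95% confidence interval -0.10 to 0.45, edgeR adjusted p = 0.287). Without 393P_vector replicate 3 it was 0.28 (edgeR adjusted p = 0.0148), and with limma's voom and sample weights it was 0.29 (limma adjusted p = 0.00278), both past the threshold. Ctnnb1 lies on the plus strand of chromosome 9 at 120933400 to 120960507, and its exons overlap those of Ulk4 on the opposite strand by 475 bp in GENCODE M21. Whether counting used the strand is not given in the sources used here. Ulk4 stood at a mean of 3.46 CPM in 393P_vector and 3.355 CPM in 393P_ZEB1. The effect of the overlap on the counts of Ctnnb1 was not tested.

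Ctnnd1 (delta-catenin 1, which stabilizes cadherins at the membrane) was the only one of the 3 catenins to fall. Its CPM was 786.2, 769.0 and 900.6 in 393P_vector and 658.5, 592.9 and 675.4 in 393P_ZEB1. All 393P_ZEB1 samples were below all 393P_vector samples. The means were 818.6 ± 71.5 and 642.3 ± 43.6 CPM, a 1.27-fold fall, with a log2 fold change of -0.35 (SE 0.11, 95% confidence interval -0.61 to -0.087, edgeR adjusted p = 0.0436). This call lay just inside the threshold. It was lost with no filter on low counts (edgeR adjusted p = 0.0677) and when any sample other than 393P_vector replicate 3 was left out (edgeR adjusted p between 0.0632 and 0.178).

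Ctnnd1 lies on the minus strand of chromosome 2 at 84600781 to 84650740. In GENCODE M21 its exons overlap those of Gm28635 on the same strand by 1465 bp, and reads there could belong to either. Of its RefSeq promoter windows, the one at the 5′ end of the counted feature is shown (chr2:84650691-84650990, minus strand, GRCm38.p6), as the only window among those of the 3 genes that held any of the searched letters. The capitals mark CACCT, which occurs at positions -238 and -231 relative to the start site, and neither occurrence is part of CACCTG. A match describes the letters and not binding.
Ctnnd1 promoter: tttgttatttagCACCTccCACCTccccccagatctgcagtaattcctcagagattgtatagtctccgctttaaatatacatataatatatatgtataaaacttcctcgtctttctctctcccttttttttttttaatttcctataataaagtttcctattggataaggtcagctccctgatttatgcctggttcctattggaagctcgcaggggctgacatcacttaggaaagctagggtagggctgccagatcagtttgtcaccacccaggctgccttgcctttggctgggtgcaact

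The genes whose pattern across the 6 samples was most like that of a cadherin were found among 10104 tested genes with a mean of at least 5 CPM, by the smallest root mean square difference of centered log2 CPM. For Cdh1 they were Ly6a (0.22), Vgll3 (0.24) and Arhgap8 (0.28). For Cdh2 they were Pion (0.061), Rnf130 (0.077) and Gpr85 (0.078), and for Cdh6 they were Pde9a (0.14), 6330406I15Rik (0.14) and 2410066E13Rik (0.16). None of these 9 genes lies on the chromosome of the cadherin it resembles. Chromosomes 8, 18 and 15 held 744, 396 and 574 of the 13892 tested genes, so few could be expected there.

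Of 16 other cadherins, 6 passed the filter on low counts, with a median log2 fold change of 0.71 against -0.02 for all tested genes. Of these 6, 3 rose and none fell, against 18.3% and 19.3% of all tested genes. Cdh12 and Cdh15, on either side of the list's median, reached at most 0.247 and 0.377 CPM in any sample. Cdh15 was among those that rose, and both are named after their values were seen. Without 393P_vector replicate 3, 1 of the other cadherins fell. The 10 that were not tested reached at most 0.247 CPM in any sample. Cdh17 (LI-cadherin, an intestinal cadherin with a short tail that does not bind catenins) stood at 30.9, 28.6 and 39.4 CPM in 393P_vector and at 475.7, 436.3 and 414.2 CPM in 393P_ZEB1. It rose 13.4-fold, with a log2 fold change of 3.74 (SE 0.16, edgeR adjusted p = 2.36e-06). Per kilobase, Cdh17 stood at 128.4 ± 9.05 CPM in 393P_ZEB1, above each of the 6 cadherins described. Cdh10 rose by 2.33 on the log2 scale (SE 0.22, edgeR adjusted p = 0.000145), from a level under 1 CPM.

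Among 7 other genes of the catenin family, 5 were tested, with a median log2 fold change of 0.01. Of these 5, 1 rose and 1 fell, against 18.3% and 19.3% of all tested genes. Without 393P_vector replicate 1 or replicate 3, 2 fell. The gene that fell was Ctnnd2, from a mean of 0.953 CPM in 393P_vector to 0.132 CPM in 393P_ZEB1 (log2 fold change -2.84, SE 0.42, edgeR adjusted p = 0.00138). It is named after its values were seen. Requiring at least 10 counts in every sample left 0 that fell. Ctnnal1 (an alpha-catenin relative) rose from 71.4 ± 4.69 to 174.0 ± 5.79 CPM, a log2 fold change of 1.28 (SE 0.099, edgeR adjusted p = 3.97e-05). Jup (gamma-catenin, which can stand in for beta-catenin at junctions) had 206.3 ± 10.6 CPM in 393P_vector and 207.1 ± 39.0 CPM in 393P_ZEB1 (log2 fold change 0.01, edgeR adjusted p = 0.983); it was chosen after its values were seen.

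The 20 listed partners of the adherens junction and its catenins were all tested, with a median log2 fold change of -0.20. Of these 20, 9 fell and 1 rose, against 19.3% and 18.3% of all tested genes, and 10 did not pass the test. As each sample was left out, 7 to 10 of these partners fell, and 1 rose, or 2 without 393P_vector replicate 3. Requiring at least 10 counts in every sample left 7 partners that fell. The largest falls were in 2 nectins, immunoglobulin-like adhesion receptors that work beside cadherins. Nectin4 fell from 7.95 ± 1.90 to 0.13 ± 0.033 CPM (log2 fold change -5.92, SE 0.31, edgeR adjusted p = 6.23e-06). Nectin1 fell from 7.90 ± 1.98 to 0.259 ± 0.118 CPM (log2 fold change -4.90, SE 0.35, edgeR adjusted p = 3.05e-05). Plekha7, which binds delta-catenin 1 at the apical junction, fell by 2.27 on the log2 scale (SE 0.27, edgeR adjusted p = 0.000435), and Shroom3, an apical constriction protein, by 1.49 (SE 0.15, edgeR adjusted p = 0.000168). Ssx2ip, an afadin-binding protein, rose by 0.89 (SE 0.11, edgeR adjusted p = 0.000573).

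**Figure D4:**
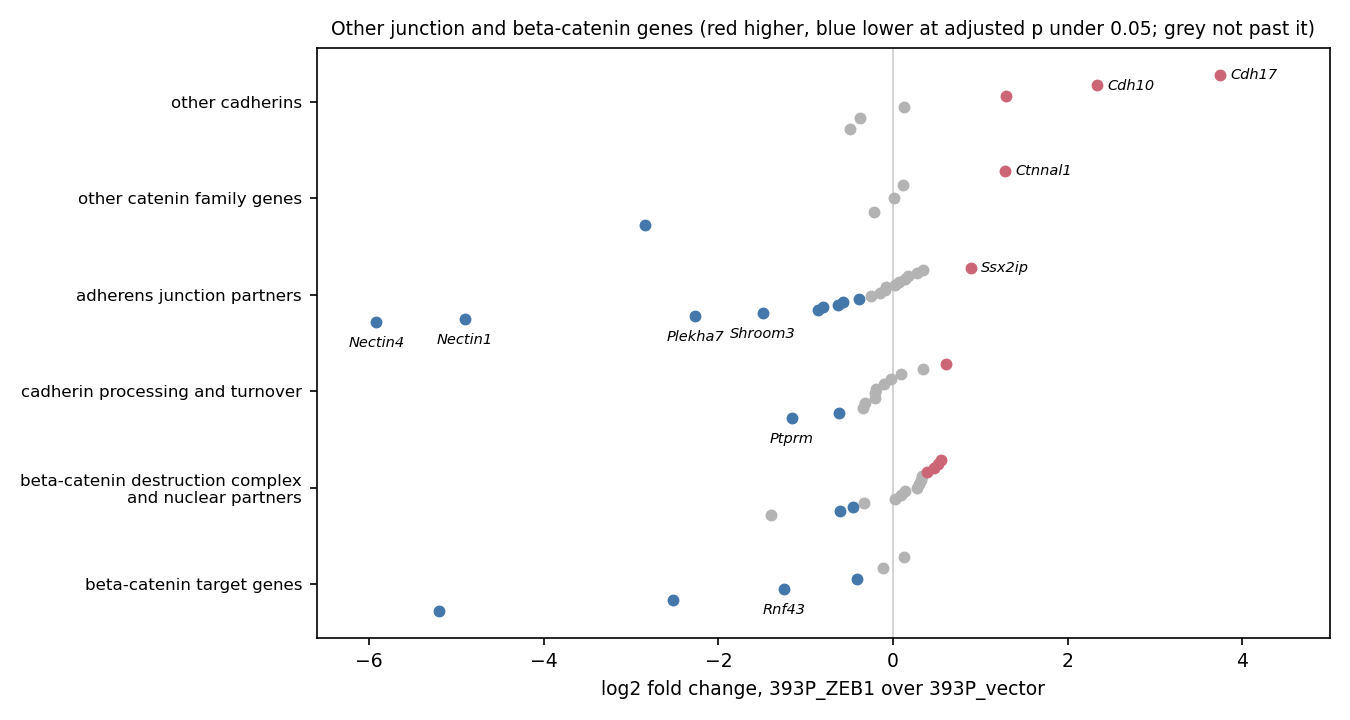
Log2 fold change of 393P_ZEB1 over 393P_vector (x axis) for the tested genes of 6 lists around the cadherins and catenins (y axis), each point 1 gene, red where it rose, blue where it fell and grey where it did not pass the test. Other cadherins that changed lie to the right of 0, up to Cdh17 at 3.74, and most changed adherens junction partners lie to the left, down to Nectin4 at -5.92.

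Of 13 genes that process or turn over cadherins, 12 were found among the features and tested, with a median log2 fold change of -0.20. Of these 12, 1 rose and 2 fell, against 18.3% and 19.3% of all tested genes, and 9 did not pass the test. Without 393P_vector replicate 3, 4 fell, and without 393P_vector replicate 2 or 393P_ZEB1 replicate 1 or 2, none rose. Ptprm, a receptor phosphatase that associates with cadherins, fell by 1.16 on the log2 scale (SE 0.15, edgeR adjusted p = 0.000821). Furin, which cleaves cadherin precursors, fell by 0.62 (SE 0.14, edgeR adjusted p = 0.00948). Adam10, which sheds the ectodomains of Cdh1 and Cdh2, rose by 0.60 (SE 0.16, edgeR adjusted p = 0.0188).

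Of 16 genes of the beta-catenin destruction complex and its nuclear partners, 15 were tested, with a median log2 fold change of 0.28. Of these 15, 4 rose and 2 fell, against 18.3% and 19.3% of all tested genes, and 9 did not pass the test. All changes were small. Fbxw11, an adaptor of the ubiquitin ligase for beta-catenin, rose by 0.55 (SE 0.094, edgeR adjusted p = 0.00293), and the kinase Gsk3b by 0.51 (SE 0.14, edgeR adjusted p = 0.0229). Tcf7l1 rose by 0.47 and Apc by 0.39, while Bcl9l fell by 0.61 and Tcf7 by 0.46 on the log2 scale. Apc lies on chromosome 18 and was below that chromosome's median. These counts depended on single samples. They were 7 higher and 4 lower without 393P_vector replicate 3, and 1 higher and at most 1 lower when any other sample was left out. The number of all genes past the threshold moved likewise, from 5218 to 7476 and to between 3645 and 4586.

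Of 10 target genes of beta-catenin signaling, 6 were tested, with a median log2 fold change of -0.83. Of these 6, 4 fell and none rose, against 19.3% and 18.3% of all tested genes. Rnf43 and Znrf3, ubiquitin ligases that remove Wnt receptors, fell by 1.25 (SE 0.25, edgeR adjusted p = 0.00671) and by 0.41 (SE 0.10, edgeR adjusted p = 0.0141) on the log2 scale. The other members that fell, Lgr5 and Sp5, were under 1 CPM in both groups. In 393P_ZEB1 their means were 0.047 and 0.0055 CPM, within or below the range of the detection floor. Requiring at least 10 counts in every sample left 2 of these targets that fell. The 4 that were not tested, Axin2, Nkd1, Notum and Dkk1, reached at most 0.177 CPM in any sample. Ccnd1 and Myc, which many other signals also control, had log2 fold changes of 0.13 (edgeR adjusted p = 0.485) and -0.12 (edgeR adjusted p = 0.411), and are named after their values were seen. Without 393P_ZEB1 replicate 1 or replicate 3, 2 of these targets fell.

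Markers of blood, vessel and fibroblast cells were low, and their part in the results above was not tested. Of 10 lung epithelial markers, 4 were tested, and 3 fell and none rose, against 19.3% and 18.3% of all tested genes. The summed level of the 10 markers was 4139 to 4855 CPM in 393P_vector and 2736 to 3031 CPM in 393P_ZEB1. Epcam fell from 122.3 ± 51.8 to 1.31 ± 0.611 CPM (log2 fold change -6.54, SE 0.48, edgeR adjusted p = 3.25e-05), and Krt18 and Krt8 fell by 0.77 (SE 0.11, edgeR adjusted p = 0.00113) and 0.61 (SE 0.11, edgeR adjusted p = 0.00359) on the log2 scale. The 6 untested lung markers, which include Nkx2-1 and Sftpc, reached at most 0.0602 CPM, and Scgb1a1 was at 0 in all samples, so the markers of this list that passed the filter were Epcam and the keratins Krt8, Krt18 and Krt19. Of 8 leukocyte markers 4 were tested and 1 fell, with a summed level of 2.81 to 5.03 CPM in 393P_vector and 2.02 to 2.26 CPM in 393P_ZEB1. Of 8 endothelial markers 3 were tested and 1 fell (Kdr), with sums of 2.97 to 3.31 and 0.90 to 1.55 CPM. Of 8 fibroblast markers 4 were tested, 1 rose and 1 fell (Pdgfra), with sums of 2.46 to 3.29 and 1.41 to 1.76 CPM. Without 393P_vector replicate 2, 2 leukocyte and 2 endothelial markers fell. Without 393P_vector replicate 3, 2 fibroblast markers fell, and without 393P_ZEB1 replicate 1 none rose.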

How the data were processed

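Total RNA of 393P_vector and 393P_ZEB1 cells (3 samples each) was sequenced by SOLiD total RNA sequencing. Per sample, the authors deposited raw read counts for each of 24214 RefSeq features, with its coordinates, exon length and number of exons with more than 10 reads. A deposited RPKM per feature was used only to check that the total it implies was 99.1% to 99.3% of the summed counts. The aligner, the counting program and the use of strand are not given in the sources used here. Coordinates were matched to GRCm38, since 99.4% of 20808 shared symbols overlapped their RefSeq position in GRCm38.p6.

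Counts were analysed in R 4.3.3 with edgeR 4.0.16 (filterByExpr with a minimum count of 10, TMM, robust quasi-likelihood fit with condition alone, Benjamini-Hochberg adjustment over 13892 genes). The study states no test for these counts. Alternatives used DESeq2 1.42.0 size factors or its Wald test, limma 3.58.1 voom with sample weights, no filter, at least 10 counts in every sample, a replicate block, omission of the 10 most counted genes or of each sample, a stricter threshold (0.01), and testing against a minimum fold change (1.5). Scripts were tested on simulated data. TMM factors lay between 0.979 and 1.05. Under TMM the median log2 fold change of all tested genes was -0.024, and under DESeq2 size factors it was -0.021. Python 3.11.15 and pandas 2.3.3 read the promoters, and matplotlib 3.10.9 drew the figures. The floor of 3 counts covers counting error only.

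The 9 genes and all lists were chosen with earlier results of these data known. All 9 were named, and of each list up to 4 genes with the largest rise and up to 4 with the largest fall past the threshold and with a mean of at least 1 CPM in a group. Neighbors and the 3 nearest patterns followed a set rule. Protein sequences were not analysed here.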

Additional observations from a re-analysis of the deposited data

How the results depend on the processing

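Cdh1, Cdh2, Cdh3 and Cdh6 kept their direction and stayed past the threshold under every alternative, and Ctnna1 under all but the test against a fold change of 1.5 (0.66, edgeR adjusted p = 0.37). None of the 135 alternative values of the 9 genes reversed, and 120 kept their side of the threshold. The threshold of 0.01 and the test against a fold change of 1.5 keep the main log2 fold changes. Values under those 2 settings could not reverse. Ctnnd1 was past the threshold at -0.35 and was lost with no filter (-0.35, edgeR adjusted p = 0.0677), at a threshold of 0.01 (-0.35) and against a fold change of 1.5 (-0.35). Cdh13 passed with DESeq2's Wald test (0.26) and with limma's voom and sample weights (0.23), and Ctnnb1 with the latter (0.29). The cause was not tested.

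As each sample was left out, log2 fold changes ranged from -4.29 to -3.75 for Cdh1, 1.92 to 2.22 for Cdh2, -3.88 to -3.44 for Cdh3, 4.16 to 4.35 for Cdh6, -0.89 to -0.16 for Cdh11, 0.24 to 0.28 for Cdh13, 0.62 to 0.69 for Ctnna1, 0.12 to 0.28 for Ctnnb1 and -0.39 to -0.28 for Ctnnd1. Between 5 and 8 of the 9 genes were then past the threshold. Of all genes, 5218 were past it (2539 higher, 2679 lower), and 3645 to 7476 as each sample was left out (1861 to 3700 higher, 1784 to 3776 lower). The count was 3129 at a threshold of 0.01 (1584 higher, 1545 lower), 2199 against a fold change of 1.5 (1081 higher, 1118 lower), and 8071 with limma's voom (3977 higher, 4094 lower). With CPM not divided by exon length, Cdh1 made up 3.43% of the cadherin sum in 393P_ZEB1, Cdh2 17.9% in 393P_vector and 69.5% in 393P_ZEB1, and Cdh6 11.8% in 393P_ZEB1. Among the gene lists, 9 adherens junction partners fell, or 5 when tested against a fold change of 1.5, and 3 rose with limma's voom, in place of 1. With voom, 7 processing genes fell in place of 2, and 8 destruction complex and nuclear genes rose and 4 fell in place of 4 and 2. At a threshold of 0.01, 1 of the latter rose and 0 fell, and 2 beta-catenin targets fell in place of 4.

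The labels number replicates alike in both groups without saying what equal numbers share. Across genes, the deviations of samples from their group means had an average r of 0.012 (-0.111 to 0.173) for equal numbers. For unequal numbers it was -0.0071 (-0.107 to 0.143). Deviations within a group sum to 0, so the second average largely follows from the first. Of 6 samples, 2 correlated best with their own number, and the numbers were not taken as pairs. With the replicate block, Ctnnd1 had a log2 fold change of -0.35 (edgeR adjusted p = 0.0784), past the threshold without it, and no other call among the 9 genes changed.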
